A study of Mus musculus with 18 samples.

Results

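The intestinal epithelium of the host mice yielded CD4 T cells that carried CD8α on their surface (CD4+CD8α+, here DP) and CD4 T cells that carried the Foxp3 reporter (CD4+Foxp3+, here TR), and the RNA of these 2 populations was compared. The comparison used 6 of the 18 libraries of the series, 3 of DP cells and 3 of TR cells, and the 13730 of 38392 genes with a normalised count of at least 10 in 3 or more of these 6 libraries. The gene just inside this filter was Cfp, whose value in the lowest of the 3 libraries that counted was 10.2, and the gene just outside it was Pigr, with 9.93. Both populations descended from transferred CD4+ cells without CD8α and without the Foxp3-GFP signal, and were sorted from the epithelium of the small intestine 6 weeks after transfer. The donor strain was C57BL/6 TNa TNb RAG1-/- Foxp3GFP. Such mice were cloned from a peripherally induced regulatory T cell, carry its rearranged receptor chains and, without RAG1, can make no other, so that DP and TR cells share a T-cell receptor. The host strain was C57BL/6 TCRa-/- TCRb-/-, which has no αβ T cells of its own but keeps γδ T cells and B cells. Shown beside them are CD4+CD8α-Foxp3- cells (SP) of the epithelium and the DP and TR cells of the lamina propria, the connective tissue under it, in 3 libraries each from the same kind of host. The labels call the libraries biological replicates without naming the animals, so the p-values rest on the spread among these libraries, which may be technical.

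As background, CD4 and CD8 mark the helper and the cytotoxic lineage of T cells. The helper lineage is held by the transcription factor ThPOK, the product of Zbtb7b, and the cytotoxic lineage by Runx3, and these factors oppose each other. In the gut epithelium some CD4 T cells lose ThPOK, gain Runx3 and CD8αα and take on features of cytotoxic intraepithelial lymphocytes, while others gain Foxp3, the factor that defines regulatory T cells, which restrain immune responses.

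The number of reads recovered per library ran from 5648774 to 6674631 in DP and from 6892918 to 8851347 in TR. TR library 1 stood apart from the other 5. It had 18307 genes with at least 1 read, against 19556 to 20072 in the others, and the predicted gene Gm26870 alone took 7.75% of its reads, against 1.11% to 4.76% for the top gene of each of the others. Its log2 values correlated with those of the other TR libraries at 0.787 and 0.776 across genes, which are not independent replicates, while TR libraries 2 and 3 correlated at 0.868 and the DP libraries among themselves at 0.932 to 0.948. Of the 12234 genes with at least 10 in both other TR libraries, 236 had no read in TR library 1, or 1.93%. The same share was 0.133% in TR library 2, 0.203% in TR library 3 and 0.0791% to 0.197% in the DP libraries. The values of all 3 TR libraries are therefore printed for most genes described. A call that ends without library 1 is said to be lost. A list count that changes is given both ways or by the gene that changed it.

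**Figure D1:**
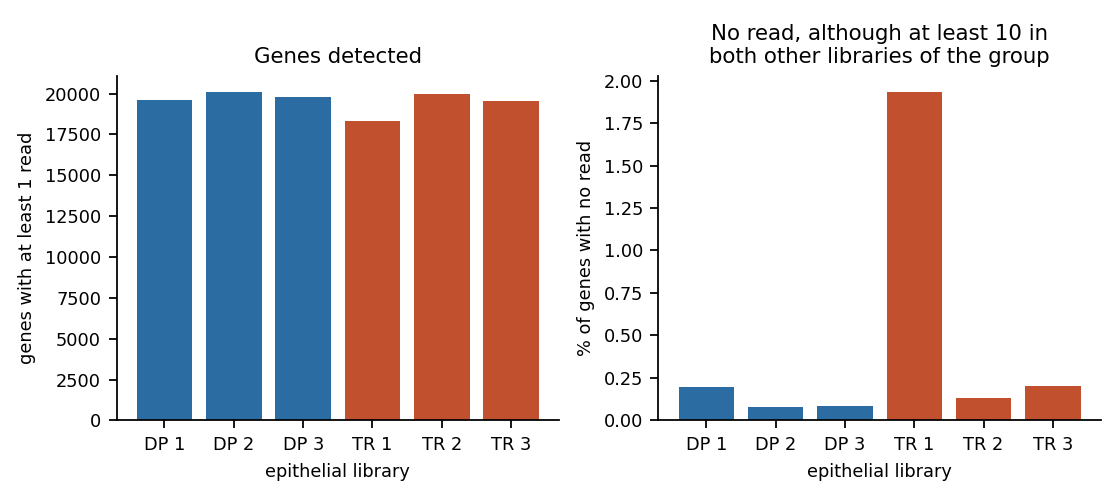
Genes with at least 1 read (left) and percent of genes with no read although both other libraries of the group had a normalised count of at least 10 (right), 1 bar per epithelial library, DP in blue and TR in red. TR 1 has the fewest genes, 18307, and the highest share without a read, 1.93%.

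The transcripts lost from TR library 1 included genes with clear values elsewhere. Sh3bp5, an adaptor that binds a tyrosine kinase of lymphocytes, had 25.6, 43.9 and 1.86 in DP and 0, 256.4 and 311 in TR. Eefsec, an elongation factor for selenocysteine, had 63.0, 55.4 and 89.3 in DP and 0, 159.5 and 241 in TR. Ccdc66, a cytoskeletal protein gene, had 311, 241 and 223 in DP and 0, 128.6 and 298 in TR. None of these genes can be placed above or below DP from all 3 TR libraries. Sh3bp5 and Eefsec were above every DP library in TR libraries 2 and 3 and below every one in TR library 1. Drg2, Xxylt1, Hibch, Trmu and Ints9 also had no read in TR library 1, with 69.7 to 203.5 in the other TR libraries.

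Differences are given on the log2 scale of the normalised count plus 1, DP minus TR, so that a positive value means more in DP, and are followed by their standard errors after ±. Genes counted as called when limma gave them a p under 0.05 after Benjamini-Hochberg adjustment, with n = 3 against 3. Of 13730 genes, 655 were called (4.77%), 272 higher in DP (1.98%) and 383 higher in TR (2.79%). The libraries of the 2 groups did not overlap for 3640 genes (26.5%), among them all 655 called ones. Of the 272 genes called higher in DP, 74 had no read in TR library 1, and 250 were called with the same sign without that library. Of the 383 called higher in TR, 340 were. In all, 860 genes were called without TR library 1, 415 higher in DP (3.02%) and 445 higher in TR (3.24%). Without DP library 1, 2 or 3 the count fell to 198, 173 and 164. The median difference over all genes tested, the background for the medians of gene lists below, was 0.05. After rescaling the libraries to equal totals it was 0.23, and the share of calls that were higher in DP was 54.9% in place of 41.5%. Genes with near-identical copies, such as those of the Gimap, Gzm, Oas, Klr and Ly6 families and the constant regions of the γ locus, can share reads, and the strand setting of the counting is not given in the sources used here. In bulk RNA, fewer cells of a type and less RNA per cell cannot be told apart.

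**Figure D2:**
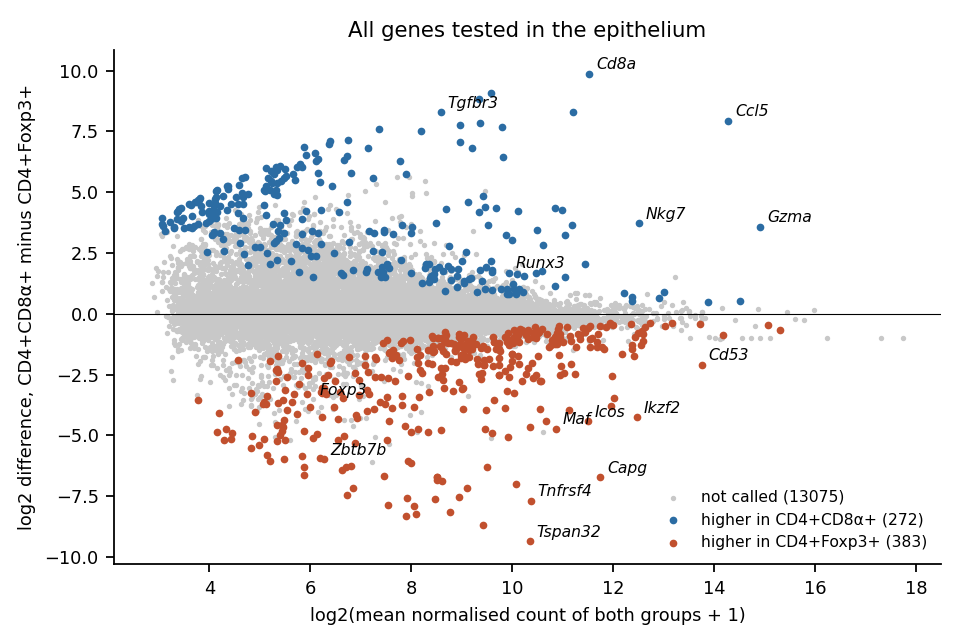
Log2 difference, DP minus TR, of each of the 13730 genes (vertical axis) against log2 of the mean normalised count of both groups plus 1 (horizontal axis). The 272 genes called higher in DP are blue, the 383 called higher in TR are red and the others are grey.

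The sort criteria came first. Cd8a, which encodes CD8α, had 4879, 6339.8 and 6443.5 in DP and 3.15, 8.25 and 5.23 in TR. Foxp3, sorted on through its reporter, had 2.14, 11.6 and 22.3 in DP and 66.2, 164 and 125 in TR. The groups did not overlap for either gene, Foxp3 missed the call (-3.52 ± 0.81, adjusted p = 0.0767, limma), and as criteria of the sort neither is a finding. Cd4 overlapped between the groups, with 671, 820.0 and 1149.6 in DP and 543, 751 and 596 in TR (0.46 ± 0.24, adjusted p = 0.399, limma). Cd8b1, which encodes the CD8β chain of the conventional CD8αβ dimer, did not follow Cd8a: it had 57.7, 57.1 and 64.2 in DP and 97.7, 161.6 and 179.5 in TR (-1.23 ± 0.33, adjusted p = 0.105, limma). Every TR library was above every DP library, and without TR library 1 Cd8b1 was called higher in TR (-1.5, adjusted p = 0.0316, limma).

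Zbtb7b, the gene of ThPOK, was almost without reads in DP, with 1.07, 0.83 and 1.86 in DP and 89.3, 236.5 and 128 in TR. Every TR library lay far above every DP library (-5.99 ± 0.49, adjusted p = 0.00360, limma). The epithelial SP cells had 69.1, 49.0 and 83.1. Runx3 had 1697, 1243.6 and 1516 in DP and 496, 621 and 307.6 in TR, without overlap and 3.13 times higher in DP by the means (1.69 ± 0.29, adjusted p = 0.0306, limma). In epithelial SP cells Runx3 had 1477, 1247 and 1484, within the range of DP. Runx1, a related factor, had 333, 366.6 and 382 in DP and 299.4, 670.3 and 728.5 in TR, where TR library 1 was below all DP libraries and the other TR libraries above them (-0.55 ± 0.36, adjusted p = 0.505, limma). Without TR library 1 it was called higher in TR (-0.95, adjusted p = 0.0299, limma). Runx3 (without any DP library) lost its call when 1 library was left out (adjusted p up to 0.142, limma).

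On the list of CD4 and CD8 lineage genes, the called genes were Cd8a and Runx3 in the direction of DP and Zbtb7b, Satb1, Lef1 and Gata3 in that of TR. Of 14 members, all tested, 2 were called higher in DP and 4 higher in TR, with a median of -0.22. The counts were 3 and 6 without TR library 1. Satb1, a chromatin organiser that acts on lineage genes in the thymus, had 117.5, 68.7 and 162 in DP and 972, 995.4 and 785 in TR (-3.05 ± 0.34, adjusted p = 0.00883, limma). Lef1, a factor of the Wnt pathway, had 60.9, 91.0 and 96.7 in DP and 416, 837 and 892 in TR (-3.04 ± 0.37, adjusted p = 0.0118, limma). Gata3, a factor of the helper lineage, had 418, 417 and 646 in DP and 1741, 1132 and 1797 in TR (-1.66 ± 0.27, adjusted p = 0.0267, limma). The groups did not overlap for any of these genes. Tcf7, a relative of Lef1, differed by 0.28 and was not called. Satb1 (without DP library 1), Lef1 (without any DP library) and Gata3 (without any DP library, or TR library 3) lost their calls when 1 library was left out (adjusted p up to 0.125, limma).

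Runx factors bind the letters TGTGGT, so the 250 bases before annotated gene starts were searched for them on both strands, in the windows of RefSeq for build GRCm38.p6. The windows of Runx3 and Zbtb7b are shown as those of the opposed lineage factors, and those of Ccl3 and Tspan32, described below, as examples of genes higher in DP and in TR, chosen after their values were seen. The reference gives 2 windows each for Runx3 and Zbtb7b, and the one that overlaps no annotated UTR is shown. Each is written 5′ to 3′ on the strand of its gene, and capitals mark TGTGGT or its reverse complement ACCACA.
Runx3 at chr4:135120395-135120644, plus strand: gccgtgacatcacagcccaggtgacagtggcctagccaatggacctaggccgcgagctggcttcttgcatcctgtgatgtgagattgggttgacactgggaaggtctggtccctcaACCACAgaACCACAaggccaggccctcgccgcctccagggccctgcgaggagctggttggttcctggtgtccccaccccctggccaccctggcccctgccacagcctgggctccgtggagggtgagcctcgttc
Zbtb7b at chr3:89387672-89387921, minus strand: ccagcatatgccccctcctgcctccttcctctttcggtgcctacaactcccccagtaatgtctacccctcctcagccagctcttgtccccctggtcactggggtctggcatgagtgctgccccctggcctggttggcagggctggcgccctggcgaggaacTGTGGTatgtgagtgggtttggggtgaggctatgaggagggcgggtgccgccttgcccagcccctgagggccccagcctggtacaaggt
Ccl3 at chr11:83649379-83649628, minus strand: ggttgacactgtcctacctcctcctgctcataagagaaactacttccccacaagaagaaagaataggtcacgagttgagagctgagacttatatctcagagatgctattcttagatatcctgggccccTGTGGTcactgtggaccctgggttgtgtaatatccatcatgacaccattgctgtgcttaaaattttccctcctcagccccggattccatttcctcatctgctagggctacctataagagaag
Tspan32 at chr7:143004796-143005045, plus strand: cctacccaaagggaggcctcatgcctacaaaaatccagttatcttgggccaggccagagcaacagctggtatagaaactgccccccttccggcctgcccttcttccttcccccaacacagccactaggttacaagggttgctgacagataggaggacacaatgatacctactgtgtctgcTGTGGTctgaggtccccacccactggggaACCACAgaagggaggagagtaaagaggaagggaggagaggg

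The windows shown of Runx3 and Tspan32 held the motif at 2 places and those of Zbtb7b and Ccl3 at 1, so that genes of both directions carried it. It was in 13.4% of the 239 windows of genes called higher in DP, in 13.1% of the 358 windows of genes called higher in TR, in 11.3% of the 10736 windows of tested genes and in 14% of all 32851 windows. The windows were matched by symbol for 8482 of the genes tested, 187 of those higher in DP and 259 of those higher in TR. The forkhead letters TGTTTAC were in 2.09% of the windows of genes higher in DP, 2.23% of those higher in TR, 2.21% of those tested and 3.17% of all. A match describes the letters and is not a site of binding.

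Genes of cytotoxic granules were higher in DP where they were called. Of 17 members, all tested, 5 were called higher in DP and 0 higher in TR (0 at an unadjusted p of 0.05, 0 by edgeR and 0 by DESeq2), with a median of 1.5. The limma counts were 6 and 0 without TR library 1. Gzmk, which encodes the granule protease granzyme K, had 1074, 1440.6 and 1349.5 in DP and 3.15, 0 and 4.36 in TR (8.83 ± 0.67, adjusted p = 0.00324, limma). Gzma, which encodes granzyme A, had 60652, 57028 and 50516 in DP and 10501, 4980.5 and 1954.5 in TR (3.58 ± 0.58, adjusted p = 0.0267, limma). The TR libraries differed widely among themselves for Gzma, with library 1 the highest, but none reached DP. Nkg7, a granule membrane protein, had 10618, 11546 and 10255 in DP and 1496, 835 and 445 in TR (3.71 ± 0.42, adjusted p = 0.00913, limma). Ctsw, a cathepsin of cytotoxic cells, had 3986, 4378 and 4989.8 in DP and 1074, 1362 and 834 in TR (2.05 ± 0.20, adjusted p = 0.00590, limma). Cst7, the cathepsin inhibitor cystatin F, differed by 1.78 ± 0.17 (adjusted p = 0.00573, limma). In epithelial SP cells Gzmk had 998, 953 and 761, Nkg7 7807, 8592 and 8647, and Ctsw 4541, 4328 and 5046. Cst7 had 1578, 1880 and 1445 there. These SP values were all above every TR library, so that these genes did not set DP apart from SP as they did from TR. Nkg7 (without any DP library) and Gzma (without any DP library, or TR library 2) lost their calls when 1 library was left out (adjusted p up to 0.124, limma).

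Several effector molecules of killing were not called. Gzmb, which encodes granzyme B, had 10921, 14740 and 14328 in DP and 6079, 9841.5 and 1689.6 in TR. Each DP library was above each TR library, and the spread of TR was wide (1.5 ± 0.63, adjusted p = 0.283, limma). In epithelial SP cells Gzmb had 5257, 6951.5 and 7024, below every DP library. Prf1, which encodes perforin, had 308, 351 and 662 in DP and 307, 85.9 and 4.36 in TR, where the groups were next to each other without overlap (2.99 ± 1.45, adjusted p = 0.352, limma). Fasl, the ligand of the death receptor Fas, had 1362.4, 1280 and 1334 in DP and 15.8, 221 and 16.6 in TR, without overlap (5.04 ± 1.02, adjusted p = 0.0517, limma).

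Receptors best known from natural killer cells were also higher in DP where called. Of 17 members, 11 passed the filter, 7 were called higher in DP and 0 higher in TR (0 at an unadjusted p of 0.05, 0 by edgeR and 0 by DESeq2), with a median of 4.21. The limma counts were 8 and 0 without TR library 1. Cd244, the signalling receptor 2B4, had 1831.5, 1520 and 1899 in DP and 6.30, 1.37 and 34.9 in TR (7.68 ± 0.96, adjusted p = 0.0118, limma). Crtam, an adhesion receptor of activated cytotoxic cells, had 149.6, 155.6 and 181 in DP and 1.05, 0 and 0 in TR (7.0 ± 0.46, adjusted p = 0.00154, limma). Klrd1, the CD94 chain of lectin-like receptors, had 117.5, 50.5 and 240.0 in DP and 0, 0.69 and 0.87 in TR (6.28 ± 0.68, adjusted p = 0.00784, limma). For Crtam and Klrd1 each TR library was near 0. In epithelial SP cells Cd244 had 776, 928 and 879, Crtam 142, 104 and 135, and Klrd1 19.0, 46.9 and 168. These SP values were above every TR library, and those of Cd244 and Crtam were below every DP library. Cd244 (without any DP library) and Klrd1 (without DP library 1) lost their calls when 1 library was left out (adjusted p up to 0.0752, limma).

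Other receptors of that list were lower in TR but clearly detected there. Cd7, a receptor of T and NK cells, had 1752.5, 2189.4 and 2327 in DP and 93.5, 207 and 70.6 in TR (4.21 ± 0.41, adjusted p = 0.00590, limma). Cd160, a receptor for HVEM, had 3826.5, 3867.4 and 3582 in DP and 605, 141 and 86.3 in TR, with TR library 1 nearest to DP (4.26 ± 0.69, adjusted p = 0.0269, limma). Slamf7 and Cd96, receptors that tune killing, differed by 4.31 ± 0.70 (adjusted p = 0.0267, limma) and 1.69 ± 0.31 (adjusted p = 0.0368, limma). Klrk1, Klrc1 and Klrc2, which encode NKG2 receptors, were below the filter, as were Klrb1c, Fcer1g and Ncr1. Cd160 and Cd96 (without any DP library, or TR library 2) and Slamf7 (without any DP library) lost their calls when 1 library was left out (adjusted p up to 0.161, limma).

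The chemokine genes formed the next group. Of 12 members, 7 passed the filter, 3 were called higher in DP and 0 higher in TR (1 at an unadjusted p of 0.05, 0 by edgeR and 1 by DESeq2), with a median of 5.62. Ccl5, which attracts T cells and monocytes, had 43561, 38066 and 37338 in DP and 96.7, 202 and 213 in TR, 233 times higher in DP by the means (7.93 ± 0.31, adjusted p = 0.000464, limma). Ccl4, a related chemokine, had 1337, 1382 and 1203.5 in DP and 4.20, 3.44 and 6.97 in TR (7.84 ± 0.32, adjusted p = 0.000464, limma). Ccl3 had 217, 116 and 166.5 in DP and 0, 0.69 and 0 in TR (7.09 ± 0.47, adjusted p = 0.00154, limma). DP was high and TR near the floor in every library for Ccl4 and Ccl3. In epithelial SP cells Ccl5 had 22494, 20035 and 23359, Ccl4 844, 762 and 1081, and Ccl3 89.1, 41.5 and 152.7. These SP values were above every TR library, and those of Ccl5 and Ccl4 were below every DP library. The 3 genes lie in a cluster on chromosome 11, from 83525778 to 83664683 in GRCm38, 139 kb with 7 genes of the table. The other tested genes there, Ccl9, E230016K23Rik and Rpl9-ps1, differed by -0.15, 0.04 and -0.35 and were not called. Xcl1, the lymphotactin gene, had 800.4, 76.1 and 355 in DP and 5.25, 0.69 and 16.6 in TR without a call (adjusted p = 0.0553, limma). Cxcl10 went the other way, with 25.65, 126.6 and 2.79 in DP and 613.5, 228 and 505 in TR, also without a call (-4.14 ± 1.27, adjusted p = 0.153, limma).

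Of the called receptors for chemokines and for tissue egress, all but 1 were higher in TR. Of 20 members, 15 passed the filter, 1 was called higher in DP and 6 higher in TR, with a median of -2.27. Cxcr6, a receptor of tissue-resident lymphocytes, was the one higher in DP, with 2431, 3097 and 2578 in DP and 273, 619 and 307 in TR (2.85 ± 0.33, adjusted p = 0.00983, limma). In epithelial SP cells Cxcr6 had 3919.5, 5103 and 3222, above every DP library. Ccr2, which binds monocyte-attracting chemokines, had 88.7, 42.2 and 40.0 in DP and 2523.5, 1821 and 1279 in TR (-5.06 ± 0.41, adjusted p = 0.00381, limma). Ccr4, found on skin-homing and regulatory T cells, had 8.55, 4.96 and 10.2 in DP and 255, 133 and 146 in TR (-4.32 ± 0.43, adjusted p = 0.00590, limma). The groups did not overlap for any of these receptors. Cxcr6 (without any DP library) lost its call when 1 library was left out (adjusted p up to 0.0632, limma).

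Gpr183, an oxysterol receptor that positions lymphocytes, had 190.2, 85.2 and 107 in DP and 697.6, 946 and 936 in TR (-2.81 ± 0.34, adjusted p = 0.0113, limma). Ccr7, which guides cells to lymph nodes, had 1.07, 1.65 and 5.58 in DP and 131, 52.2 and 201 in TR (-5.09 ± 0.70, adjusted p = 0.0158, limma). Cxcr5, which guides them to follicles, had 1.07, 0.83 and 0.93 in DP and 385.6, 34.4 and 239.6 in TR (-6.26 ± 0.92, adjusted p = 0.0208, limma). Both were near 0 in DP and differed several-fold among the TR libraries. S1pr4, a sphingosine phosphate receptor, had 121, 185 and 240.0 in DP and 598, 521 and 435 in TR (-1.55 ± 0.30, adjusted p = 0.0470, limma) and was not called without TR library 1 (-1.44, adjusted p = 0.0691, limma). The gut-homing receptor Ccr9 had 1379.5, 1899 and 1995 in DP and 4447, 5673 and 2103.5 in TR and was not called (adjusted p = 0.196, limma). Gpr183 (without DP library 3), Ccr7 (without DP library 1 or 2), Cxcr5 (without any DP library, or TR library 3) and S1pr4 (without any library) lost their calls when 1 library was left out (adjusted p up to 0.164, limma).

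Adhesion molecules went both ways. Of 18 members, 16 passed the filter, 3 were called higher in DP and 2 higher in TR, with a median of 0.04. Itga1, the α1 chain of a collagen receptor, had 1318.6, 737 and 928 in DP and 1.05, 2.06 and 13.1 in TR (7.76 ± 0.76, adjusted p = 0.00590, limma). Amica1, which encodes the epithelial adhesion receptor JAML, had 5259.5, 5076 and 3803 in DP and 8.40, 28.2 and 10.5 in TR (8.32 ± 0.46, adjusted p = 0.00122, limma). Itgae, the αE chain of the receptor for epithelial E-cadherin, had 5166.5, 6776 and 6267 in DP and 3958.6, 3221.4 and 3009.7 in TR (0.84 ± 0.15, adjusted p = 0.0356, limma). Itga1 and Amica1 were low in every TR library, while Itgae was well detected in both groups and 1.79 times higher in DP by the means. In epithelial SP cells Itga1 had 695, 839 and 930 and Amica1 4641.5, 4489 and 5124, near the DP values. Itgae had 3602, 4697.5 and 3935 there, below every DP library. Itgae (without any DP library, or TR library 2 or 3) lost its call when 1 library was left out (adjusted p up to 0.157, limma).

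In the other direction, Cd2, a receptor that strengthens contact with other cells, had 412.5, 333 and 407 in DP and 2522.5, 2303 and 3158 in TR (-2.78 ± 0.17, adjusted p = 0.00135, limma). Itga4, the α4 chain of the gut-homing integrin, had 373, 448 and 348 in DP and 1073, 829 and 1055 in TR (-1.34 ± 0.18, adjusted p = 0.0140, limma). Its partner Itgb7 differed by 0.32 and was not called. Itga4 (without any DP library) lost its call when 1 library was left out (adjusted p up to 0.0813, limma).

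Genes known from regulatory T cells were higher in TR where called. Of 20 members, 17 passed the filter, 12 were called higher in TR and 0 higher in DP (0 at an unadjusted p of 0.05, 0 by edgeR and 0 by DESeq2), with a median of -3.97. Ikzf2, which encodes Helios, had 731, 495 and 494 in DP and 11303, 10855 and 10250 in TR, with little spread in TR (-4.26 ± 0.17, adjusted p = 0.000468, limma). Nrp1, neuropilin 1, often used to mark regulatory T cells of the thymus, had 1.07, 2.48 and 2.79 in DP and 894, 608 and 1110.1 in TR (-8.13 ± 0.40, adjusted p = 0.000703, limma). Folr4, a folate receptor family gene of regulatory T cells, had 2.14, 0.83 and 3.72 in DP and 674.5, 1473 and 1922 in TR (-8.69 ± 0.55, adjusted p = 0.00154, limma). All 3 genes were high in each TR library, library 1 included.

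Capg, an actin capping protein gene, had 83.3, 73.6 and 39.1 in DP and 8637, 6227 and 5523 in TR (-6.72 ± 0.34, adjusted p = 0.000883, limma). Ebi3, a chain of the inhibitory cytokine IL-35, had 1.07, 0 and 0.93 in DP and 236, 834.6 and 566 in TR (-8.25 ± 0.59, adjusted p = 0.00284, limma). Il2ra, the high-affinity chain of the IL-2 receptor, had 199, 208 and 191 in DP and 694.4, 548 and 643 in TR (-1.65 ± 0.17, adjusted p = 0.00680, limma). Unlike Ebi3, Il2ra was detected in both groups. Ikzf4, which encodes Eos, and Entpd1, the ectoenzyme CD39, differed by -2.78 ± 0.43 (adjusted p = 0.0243, limma) and -2.76 ± 0.45 (adjusted p = 0.0269, limma), and Tigit, an inhibitory receptor, by -2.68 ± 0.47 (adjusted p = 0.0337, limma). Ctla4, Tnfrsf4 and Tnfrsf18 completed the called members and are described below. Ikzf4 and Tigit (without any DP library, or TR library 2 or 3) and Entpd1 (without any DP library) lost their calls when 1 library was left out (adjusted p up to 0.144, limma).

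The effector genes of regulatory T cells were also higher in TR where called. Of 20 members, 15 passed the filter, 6 were called higher in TR and 0 higher in DP (0 at an unadjusted p of 0.05, 0 by edgeR and 0 by DESeq2), with a median of -1.68. The limma counts were 7 and 0 without TR library 1. Maf, which drives Il10 transcription in T cells, had 140.0, 128 and 138 in DP and 4066, 3423 and 3350.4 in TR (-4.72 ± 0.14, adjusted p = 0.000441, limma). Il10 itself had 3.21, 9.93 and 0.93 in DP and 159.7, 456 and 74.9 in TR (-5.31 ± 0.90, adjusted p = 0.0303, limma). Areg, the tissue repair factor amphiregulin, had 2.14, 4.14 and 11.2 in DP and 1296.4, 448 and 558 in TR (-6.89 ± 0.65, adjusted p = 0.00573, limma). The TR libraries differed more among themselves for Il10 and Areg than for Maf, and none overlapped with DP. Il10 (without any DP library, or TR library 2) lost its call when 1 library was left out (adjusted p up to 0.132, limma).

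Il1rl1, the receptor ST2 for IL-33, had 39.5, 25.6 and 26.0 in DP and 378, 503 and 370.3 in TR (-3.75 ± 0.30, adjusted p = 0.00348, limma). Klrg1, a lectin-like receptor of differentiated cells, had 23.5, 41.4 and 2.79 in DP and 3176, 1432 and 1824 in TR (-7.0 ± 0.92, adjusted p = 0.0140, limma). Prdm1, the gene of Blimp-1, had 152, 141 and 114.4 in DP and 321.5, 229 and 91.5 in TR and was not called. Its TR libraries spanned the DP values. Icos, described next, was another called member. Klrg1 (without DP library 1) lost its call when 1 library was left out (adjusted p up to 0.0656, limma).

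**Figure D3:**
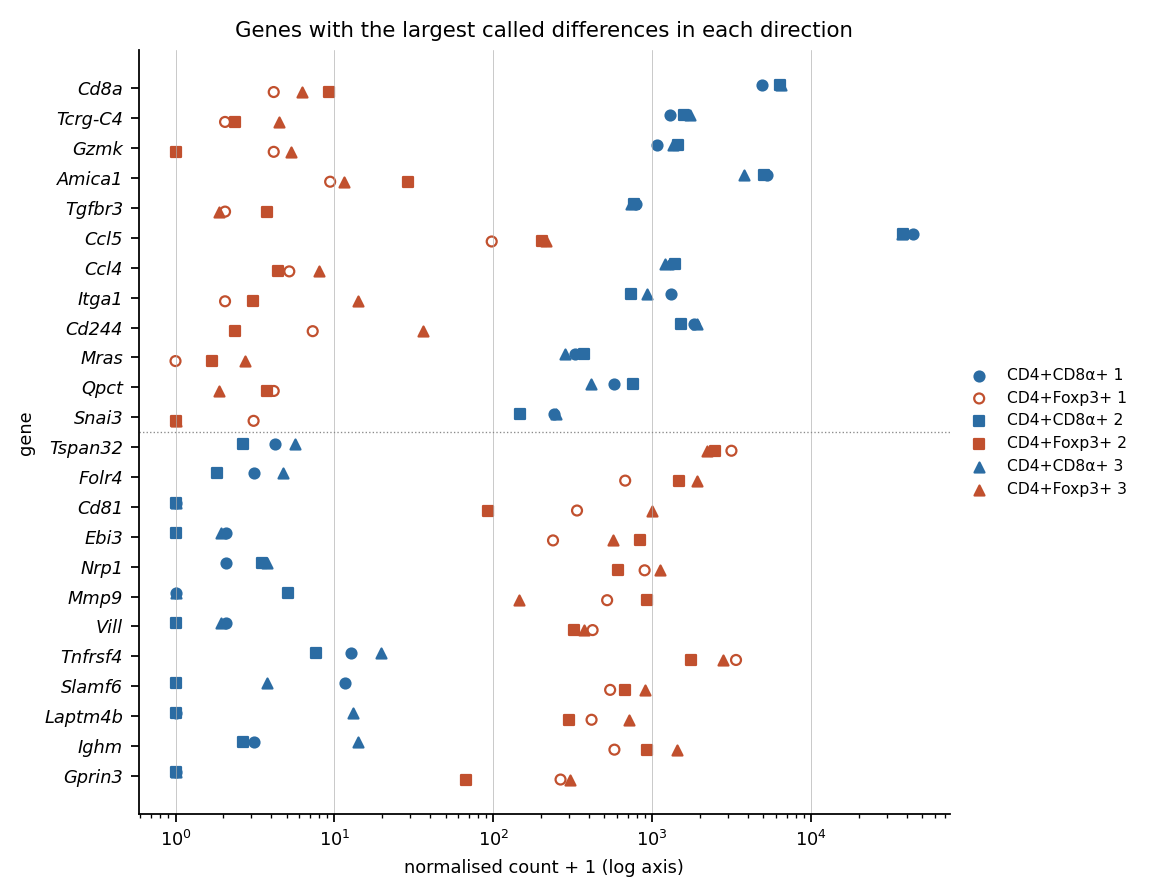
Normalised count plus 1 on a log axis in each of the 6 libraries for the 12 genes with the largest called differences in each direction, DP in blue and TR in red, with TR 1 drawn open and the symbol giving the library number. The rule took genes whose groups do not overlap, and Tspan32 lies at 3148, 2468 and 2218 in TR against 1.65 to 4.65 in DP.

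Costimulatory receptors were higher in TR where called. Of 15 members, all tested, 8 were called higher in TR and 0 higher in DP (3 at an unadjusted p of 0.05, 0 by edgeR and 2 by DESeq2), with a median of -2.12. The limma counts were 8 and 1 without TR library 1, the gene higher in DP being Cd226 (adjusted p = 0.0405, limma). Icos, the inducible costimulator, had 268, 248 and 242 in DP and 4363, 6454 and 5777 in TR (-4.43 ± 0.17, adjusted p = 0.000464, limma). Cd28, the primary costimulator, had 144, 238 and 169 in DP and 2179, 2958 and 3236 in TR (-3.93 ± 0.25, adjusted p = 0.00156, limma). Ctla4, the inhibitory receptor for the ligands of CD28, had 205, 323.5 and 274 in DP and 4355, 4651 and 3482 in TR (-3.97 ± 0.21, adjusted p = 0.00106, limma). The 3 genes are neighbours on chromosome 1, from 60716800 to 61000320 in GRCm38, a stretch of 284 kb with 9 genes of the table. The other tested genes there were the pseudogenes Rpl18-ps1 and Gm11582, which differed by -0.29 and -0.95 and were not called.

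The other called members of that list were genes of the SLAM family and its adaptor, Btla and Cd27. Slamf6 had 10.7, 0 and 2.79 in DP and 542, 669.6 and 902 in TR (-7.61 ± 0.89, adjusted p = 0.0106, limma). Sh2d1a, which encodes the adaptor SAP of these receptors, had 537.5, 263 and 373 in DP and 1912, 2269.9 and 2098 in TR (-2.47 ± 0.27, adjusted p = 0.00827, limma). Cd84 differed by -1.45 ± 0.19 (adjusted p = 0.0140, limma), Btla, an inhibitory receptor, by -2.39 ± 0.39 (adjusted p = 0.0266, limma) and Cd27, a costimulator, by -2.12 ± 0.31 (adjusted p = 0.0204, limma). Slamf6 and Sh2d1a (without DP library 3), Cd84 and Cd27 (without DP library 1 or 2) and Btla (without any DP library, or TR library 2 or 3) lost their calls when 1 library was left out (adjusted p up to 0.112, limma).

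Among TNF receptors and ligands, 7 of the 8 called genes were higher in TR. Of 19 members, 17 passed the filter, 1 was called higher in DP and 7 higher in TR, with a median of -1.68. The counts were 2 and 8 without TR library 1. Tnfrsf4, the costimulator OX40, had 11.8, 6.62 and 18.6 in DP and 3364, 1752 and 2784 in TR (-7.68 ± 0.44, adjusted p = 0.00123, limma). Tnfrsf18, known as GITR, had 95.1, 201 and 153.5 in DP and 2326, 3086.6 and 3911 in TR (-4.40 ± 0.33, adjusted p = 0.00315, limma). Both lie within 15.1 kb on chromosome 4, from 156013843 to 156028895 in GRCm38, a pair noticed after the values were seen. Ltb, which encodes lymphotoxin β, had 979.9, 857 and 830.5 in DP and 4467, 2991 and 3719 in TR (-2.05 ± 0.17, adjusted p = 0.00424, limma).

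Tnfrsf26, a receptor of the same family, had 46.0, 127.4 and 40.0 in DP and 1088.4, 1144 and 688 in TR (-3.92 ± 0.49, adjusted p = 0.0122, limma). Tnfsf11, the ligand RANKL, and Tnfrsf1b, a receptor for TNF, differed by -3.21 ± 0.45 (adjusted p = 0.0178, limma) and -1.54 ± 0.24 (adjusted p = 0.0248, limma). The gene higher in DP was Tnfsf14, the ligand LIGHT, with 431, 413 and 533 in DP and 44.1, 2.75 and 2.61 in TR, where TR library 1 was the highest of TR (5.75 ± 1.02, adjusted p = 0.0342, limma). Tnfrsf9, the costimulator 4-1BB, had 32.1, 9.10 and 149 in DP and 1421.5, 621 and 2338 in TR and missed the call (adjusted p = 0.0524, limma). Tnfrsf26 (without DP library 1 or 3), Tnfsf11 (without DP library 2 or 3), Tnfrsf1b (without DP library 2 or 3, or TR library 2 or 3) and Tnfsf14 (without any DP library, or TR library 2 or 3) lost their calls when 1 library was left out (adjusted p up to 0.150, limma).

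The inhibitory receptors split between the populations. Of 15 members, all tested, 2 were called higher in DP and 5 higher in TR, with a median of -0.19. The median was -1.521 without TR library 1, -1.155 in edgeR and -1.146 in DESeq2. Cd160 and Cd244 were the ones higher in DP, and Ctla4, Klrg1, Lilrb4, Btla and Tigit those higher in TR. Lilrb4, a receptor with inhibitory motifs, had 151, 104 and 114.4 in DP and 1004, 1852 and 1516 in TR (-3.53 ± 0.28, adjusted p = 0.00382, limma). Pdcd1, the gene of PD-1, had 0, 16.6 and 6.51 in DP and 105, 94.2 and 894 in TR without a call (adjusted p = 0.0949, limma). Lag3, Havcr2 and Cd274 were not called either.

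**Figure D4:**
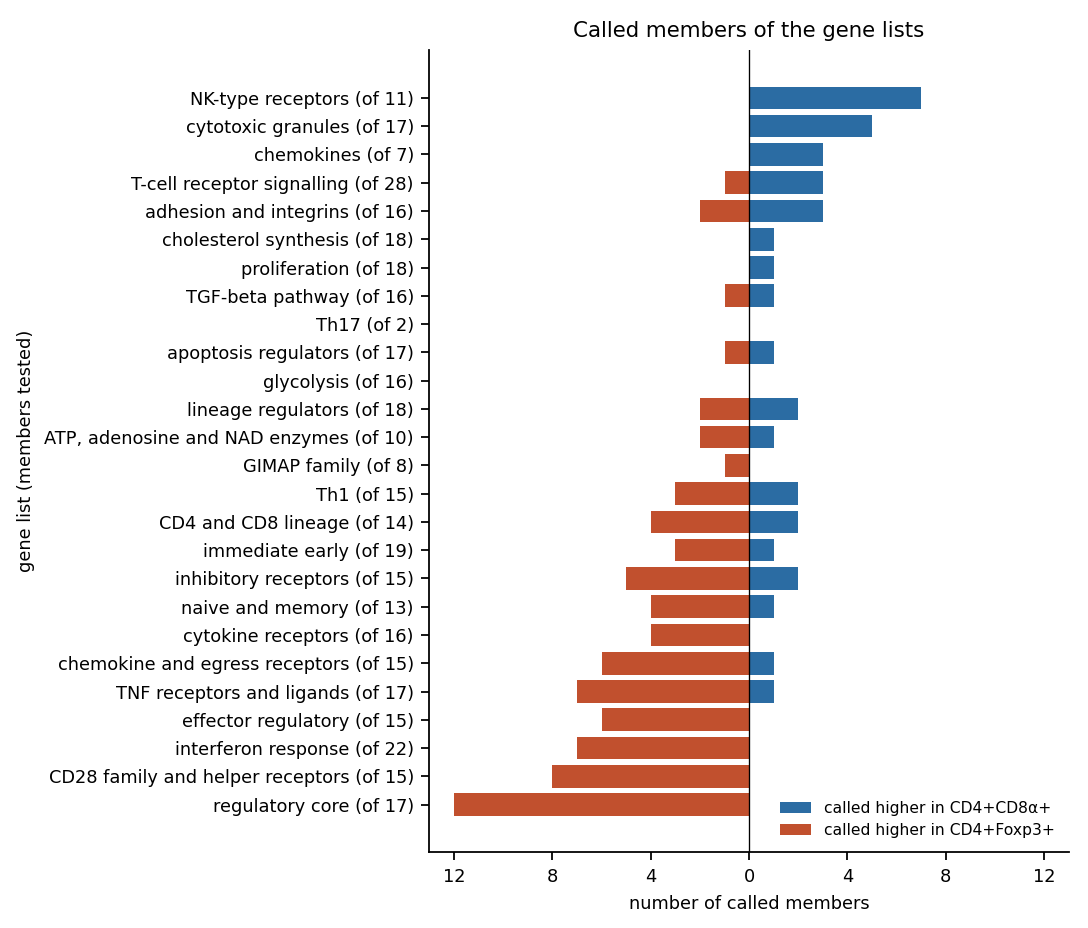
Number of members called higher in DP (blue, to the right) and higher in TR (red, to the left) for each of the 26 functional gene lists, with the number of members tested in parentheses. The regulatory core has the longest red bar, 12 of 17, and the NK-type receptors the longest blue bar, 7 of 11.

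Genes of the type 1 helper programme were divided. Of 16 members, 15 passed the filter, 2 were called higher in DP and 3 higher in TR, with a median of -0.67. Ifng, the cytokine interferon γ, had 774, 728 and 499.4 in DP and 46.2, 81.1 and 31.4 in TR (3.71 ± 0.40, adjusted p = 0.00810, limma). In epithelial SP cells Ifng had 630, 559 and 624, within the range of DP. Ifngr1, a chain of its receptor, went the other way, with 1013, 1191 and 1255 in DP and 6612, 9407 and 4828 in TR (-2.54 ± 0.25, adjusted p = 0.00590, limma). The gene of the ligand was thus higher in DP and that of this receptor chain in TR. Il18r1, a receptor for IL-18, differed by -2.51 ± 0.44 (adjusted p = 0.0329, limma) and Il2, the T-cell growth factor, by 2.18 ± 0.41 (adjusted p = 0.0402, limma). Tbx21, the gene of T-bet, had 229, 372 and 317 in DP and 159.7, 79.7 and 27.9 in TR (2.06 ± 0.64, adjusted p = 0.160, limma), and was called higher in DP without TR library 1 (2.64, adjusted p = 0.0406, limma). Ifng (without DP library 1 or 2), Il18r1 (without any DP library, or TR library 2 or 3) and Il2 (without any DP library, or TR library 3) lost their calls when 1 library was left out (adjusted p up to 0.176, limma).

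Interferon response genes were higher in TR where called. Of 22 members, all tested, 7 were called higher in TR and 0 higher in DP (0 at an unadjusted p of 0.05, 0 by edgeR and 0 by DESeq2), with a median of -1.37. Without TR library 1, 11 were called higher in TR. Ifi27l2a, an interferon-induced gene, had 815, 749.6 and 532 in DP and 6115.5, 8052 and 8686 in TR (-3.45 ± 0.21, adjusted p = 0.00151, limma). Usp18, which dampens interferon receptor signals, had 96.2, 52.1 and 64.2 in DP and 342.5, 471 and 430.5 in TR (-2.57 ± 0.31, adjusted p = 0.0104, limma). Isg20, Oas1a, Bst2 and Oasl1 were also called, at -1.70, -1.86, -1.79 and -4.97. Ifit1, Mx1 and Rsad2, members of the same response, were not called. Usp18 (without DP library 2 or 3), Isg20, Oas1a and Bst2 (without any DP library) and Oasl1 (without any DP library, or TR library 2) lost their calls when 1 library was left out (adjusted p up to 0.118, limma).

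Cytokine receptors gave calls in the direction of TR. Of 20 members, 16 passed the filter, 4 were called higher in TR and 0 higher in DP (0 at an unadjusted p of 0.05, 0 by edgeR and 0 by DESeq2), with a median of -0.85. The limma counts were 5 and 0 without TR library 1. Il10ra, the ligand-binding chain of the IL-10 receptor, had 19.2, 10.8 and 15.8 in DP and 750.1, 337.5 and 381 in TR (-4.86 ± 0.42, adjusted p = 0.00441, limma). The others were Il2ra, Il1rl1 and Il18r1. Il7r and Il2rb, receptors for survival cytokines, differed by 0.36 and -0.20 and were not called.

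In the TGF-beta pathway, whose signals induce both Foxp3 and CD8α in gut T cells, the ligand and the signalling receptors were not called in limma. Of 18 members, 16 passed the filter, 1 was called higher in DP and 1 higher in TR, with a median of -0.26. DESeq2 called 3 higher in DP and 5 higher in TR. Tgfbr3, the coreceptor betaglycan, had 789.7, 761 and 732 in DP and 1.05, 2.75 and 0.87 in TR (8.29 ± 0.37, adjusted p = 0.000514, limma). The epithelial SP cells had 738, 808 and 764.4 of Tgfbr3, near the DP values. Skil, a repressor of SMAD proteins, had 4756, 4310.1 and 4116.5 in DP and 8765, 7190 and 7635 in TR (-0.84 ± 0.10, adjusted p = 0.0118, limma). Tgfb1, Tgfbr1 and Tgfbr2 differed by -1.68, -0.59 and 1.28 (adjusted p = 0.0530, 0.175 and 0.0921, limma). Their libraries did not overlap between the groups, as for 26.5% of all genes tested. A missed call is thus not evidence of equal levels. Skil (without DP library 2 or 3) lost its call when 1 library was left out (adjusted p up to 0.0767, limma).

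Of the T-cell receptor signalling genes 4 of 28 were called, beside 4.77% of all genes. Of 28 members, all tested, 3 were called higher in DP and 1 higher in TR, with a median of 0.36. The median was 0.026 without TR library 1. Themis, a signalling scaffold, had 995, 955 and 935 in DP and 380.3, 305 and 449 in TR (1.36 ± 0.18, adjusted p = 0.0137, limma). Ptpn22, a phosphatase, and Cd3g, a chain of the receptor complex, differed by 1.02 ± 0.18 (adjusted p = 0.0368, limma) and 0.68 ± 0.13 (adjusted p = 0.0498, limma). Nfatc1, a calcium-driven factor, was the one higher in TR, with 401, 409.6 and 307 in DP and 804, 901 and 708.4 in TR (-1.11 ± 0.19, adjusted p = 0.0279, limma). Themis (without any DP library), Ptpn22 (without DP library 2 or 3, or TR library 1 or 2 or 3), Cd3g (without any DP library, or TR library 2 or 3) and Nfatc1 (without any DP library, or TR library 2) lost their calls when 1 library was left out (adjusted p up to 0.189, limma).

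Genes of naive and memory cells followed. Of 14 members, 13 passed the filter, 1 was called higher in DP and 4 higher in TR, with a median of -2.27. The counts were 1 and 5 without TR library 1. Bcl2, which protects from apoptosis, had 1190.4, 1029 and 1529 in DP and 230.1, 249.5 and 363 in TR (2.16 ± 0.25, adjusted p = 0.00951, limma). Ly6c1, a surface marker, had 13.9, 32.3 and 7.44 in DP and 229, 309 and 239.6 in TR (-4.00 ± 0.54, adjusted p = 0.0153, limma), and the other called genes were Satb1, Lef1 and Ccr7. On the list of apoptosis regulators Bcl2 was called in DP and Casp4, an inflammatory caspase, in TR, with 329, 305 and 254 in DP and 959, 759 and 768 in TR (-1.48 ± 0.18, adjusted p = 0.0114, limma). Of 19 members, 17 passed the filter, 1 was called higher in DP and 1 higher in TR, with a median of -0.56. The counts were 1 and 2 without TR library 1. Bcl2 and Ly6c1 (without DP library 1 or 3) and Casp4 (without DP library 2 or 3) lost their calls when 1 library was left out (adjusted p up to 0.0855, limma).

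Other regulators of lineage went both ways. Of 20 members, 18 passed the filter, 2 were called higher in DP and 2 higher in TR, with a median of -0.46. Without TR library 1, 4 were called in each direction. Id2, which blocks E proteins, had 9900.2, 10632 and 11604 in DP and 7024, 5086 and 5112 in TR (0.91 ± 0.15, adjusted p = 0.0268, limma). Ikzf3, which encodes Aiolos, had 1159.4, 1143 and 1220.2 in DP and 493, 396 and 232 in TR (1.72 ± 0.29, adjusted p = 0.0300, limma). Among the Ikaros factors, Ikzf3 was thus called higher in DP and Ikzf2 and Ikzf4 higher in TR, while Ikzf1 had 1360.3, 1211.4 and 1270.5 in DP and 785, 515.6 and 408 in TR and missed the call in limma (adjusted p = 0.0550) but not in DESeq2 (adjusted p = 0.000286), and was called in limma without TR library 1 (1.48, adjusted p = 0.00940, limma). Id2 (without any DP library, or TR library 2 or 3) and Ikzf3 (without any DP library, or TR library 2) lost their calls when 1 library was left out (adjusted p up to 0.138, limma).

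Immediate early genes are known to rise during cell isolation, and 3 of the 4 called were higher in TR. Of 21 members, 19 passed the filter, 1 was called higher in DP and 3 higher in TR, with a median of -0.23. Nr4a2, an orphan nuclear receptor, had 1277, 1160.1 and 744 in DP and 26.3, 27.5 and 102 in TR (4.58 ± 0.58, adjusted p = 0.0122, limma). Dusp1, a phosphatase of MAP kinases, had 421, 694 and 498.5 in DP and 2175, 1956.5 and 2272.5 in TR (-2.02 ± 0.21, adjusted p = 0.00675, limma). Nfkbia, the inhibitor of NF-κB, had 642, 915 and 628 in DP and 5065, 3607 and 3615 in TR (-2.49 ± 0.21, adjusted p = 0.00441, limma). Nr4a2 was low in every TR library, and Dusp1 and Nfkbia were well detected in both groups. Zfp36, which degrades cytokine transcripts, differed by -1.33 ± 0.26 (adjusted p = 0.0457, limma). Fos, Jun and Egr1 differed by -0.01, -0.73 and -0.18 and were not called. The part of the isolation in these differences was not tested. Nr4a2 (without any DP library) and Zfp36 (without any DP library, or TR library 2 or 3) lost their calls when 1 library was left out (adjusted p up to 0.182, limma).

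Of 16 glycolysis genes, limma and edgeR called 0 and DESeq2 called 1 higher in DP and 4 higher in TR, with 1 and 5 at an unadjusted p under 0.05, and limma called 2 higher in TR without TR library 1. The share of cholesterol synthesis genes called in limma was near the 4.77% of all genes. Of 18 members, all tested, 1 was called higher in DP and 0 higher in TR (0 at an unadjusted p of 0.05, 0 by edgeR and 0 by DESeq2), with a median of 0.98. It was Lss, lanosterol synthase, with 355, 469 and 268 in DP and 51.5, 94.2 and 92.4 in TR (2.20 ± 0.36, adjusted p = 0.0267, limma). In the direction of DP, 5 members passed an unadjusted p of 0.05, DESeq2 called 4 and edgeR called 1. Without TR library 1, 5 were called higher in DP in limma, among them Lss, Hmgcs1, Sqle and Cyp51. Lss (without any DP library) lost its call when 1 library was left out (adjusted p up to 0.128, limma).

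The share of proliferation genes called was near the 4.77% of all genes. Of 21 members, 18 passed the filter, 1 was called higher in DP and 0 higher in TR (0 at an unadjusted p of 0.05, 0 by edgeR and 0 by DESeq2), with a median of 0.38. Rrm2, a subunit of ribonucleotide reductase, had 194.5, 224 and 114.4 in DP and 44.1, 59.8 and 41.8 in TR (1.81 ± 0.36, adjusted p = 0.0475, limma), and without TR library 1 limma called 0 members. Th17 genes were mostly below the filter: 2 of 12 passed it and limma called 0, while DESeq2 called Rora higher in DP and 1 gene in each direction passed an unadjusted p of 0.05. Il17a, Il17f and Il22 were among those below it. Rrm2 (without any library) lost its call when 1 library was left out (adjusted p up to 0.199, limma).

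Enzymes and receptors for ATP, adenosine and NAD were divided. Of 12 members, 10 passed the filter, 1 was called higher in DP and 2 higher in TR, with a median of 0.05. The median was -0.25 without TR library 1. Cd38, a NAD-consuming ectoenzyme, had 2537, 2636 and 2412.6 in DP and 912, 1353 and 1234 in TR (1.13 ± 0.17, adjusted p = 0.0206, limma). Art2b, which ADP-ribosylates surface proteins, differed by -1.15 ± 0.20 (adjusted p = 0.0300, limma), and Entpd1 was the other called gene. The GIMAP GTPases of lymphocytes all had differences below 0. Of 8 members, all tested, 1 was called higher in TR and 0 higher in DP (0 at an unadjusted p of 0.05, 0 by edgeR and 0 by DESeq2), with a median of -0.56. It was Gimap3, with 1027, 1368 and 1384 in DP and 2146, 3123 and 2721 in TR (-1.08 ± 0.19, adjusted p = 0.0348, limma), and limma called 0 members after equal totals or quantile normalisation. In the direction of TR, 7 members passed an unadjusted p of 0.05, DESeq2 called 4 and edgeR called 1. Cd38 (without any DP library) and Art2b and Gimap3 (without any DP library, or TR library 2 or 3) lost their calls when 1 library was left out (adjusted p up to 0.127, limma).

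Several of the largest differences fell outside the lists of pathways. Tcrg-C4, a constant region of the T-cell receptor γ locus, had 1293, 1576 and 1734.6 in DP and 1.05, 1.37 and 3.49 in TR (9.09 ± 0.39, adjusted p = 0.000468, limma). In epithelial SP cells it had 669.9, 859 and 716. Mras, a small GTPase of the Ras family, had 326, 368 and 279.9 in DP and 0, 0.69 and 1.74 in TR (7.60 ± 0.47, adjusted p = 0.00130, limma). Qpct, a glutaminyl cyclase, and Snai3, a factor of the Snail family, differed by 7.52 ± 0.45 (adjusted p = 0.00130, limma) and 7.15 ± 0.59 (adjusted p = 0.00385, limma). TR values of Tcrg-C4 and Mras were between 0 and 3.49.

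Tspan32, a tetraspanin of blood cells, had 3.21, 1.65 and 4.65 in DP and 3147.6, 2468 and 2218.5 in TR, 824 times higher in TR by the means (-9.34 ± 0.37, adjusted p = 0.000464, limma). Cd81, another tetraspanin, was at 0 in all DP libraries and at 335, 91.4 and 997 in TR, at least 168-fold higher by a floor of 3 reads per library (adjusted p = 0.00721, limma). Cd81 was not called by edgeR (adjusted p = 0.0633, edgeR), and with 1 library left out its adjusted p reached 0.0499 in limma. Gprin3, a protein that binds G proteins, was likewise at 0 in all DP libraries, with 264, 66.7 and 301 in TR, at least 74.4-fold higher (adjusted p = 0.00470, limma). The groups did not overlap for these 3 genes, which the rule that named them required.

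Vill, a relative of the actin-binding villin, had 1.07, 0 and 0.93 in DP and 420.2, 319.7 and 370.3 in TR (-7.86 ± 0.42, adjusted p = 0.000908, limma). Mmp9, a matrix protease, had 0, 4.14 and 0 in DP and 519, 919 and 144 in TR (-7.89 ± 0.95, adjusted p = 0.0113, limma). Laptm4b, a lysosomal membrane protein, had 0, 0 and 12.1 in DP and 414, 298 and 708.4 in TR (-7.56 ± 1.09, adjusted p = 0.0194, limma). For Mmp9 and Laptm4b at least 1 DP library was at 0 and the others stayed far below TR. Mmp9 (without DP library 1 or 3) and Laptm4b (without DP library 1 or 2, or TR library 3) lost their calls when 1 library was left out (adjusted p up to 0.0891, limma).

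T-cell markers were alike in sum, with 36506 to 39846 in DP and 33768 to 36017 in TR over 12 markers. Of 18 epithelial markers, 10 passed the filter, 2 were called higher in DP and 1 higher in TR, with sums of 426 to 2094 in DP and 395, 825 and 554 in TR. Cdh1, E-cadherin, had 233, 246.6 and 404 in DP and 9.46, 3.44 and 3.49 in TR (5.59 ± 0.48, adjusted p = 0.00436, limma). Epcam, another epithelial adhesion molecule, had 55.6, 13.2 and 35.3 in DP and 305, 312 and 372 in TR (-3.42 ± 0.54, adjusted p = 0.0249, limma). Krt20, a keratin, had 28.9, 19.0 and 27.9 in DP and was at 0 in TR, at least 9.68-fold higher in DP (adjusted p = 0.00893, limma). Of the 10 tested, 9 were higher in DP on the log2 scale, with a median of 1.78. Reg3g, an antimicrobial lectin, had 899.7, 2.48 and 209 in DP and 51.5, 189 and 18.3 in TR, and Fabp2, a fatty acid binding protein of enterocytes, had 28.9, 57.9 and 509 in DP and 0, 41.9 and 33.1 in TR. Reg3b, a relative of Reg3g, had 596, 30.6 and 93.9 in DP and 1.05, 175 and 69.7 in TR, and these 3 genes overlapped between the groups and were not called. The defining markers Alpi and Muc2 were at 0 in all 6 libraries. The part of epithelial RNA in the differences of Cdh1, Krt20 and Epcam was not tested. Epcam (without DP library 3, or TR library 2 or 3) and Krt20 (without any DP library) lost their calls when 1 library was left out (adjusted p up to 0.104, limma).

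Ighm, the immunoglobulin μ heavy chain, was among the largest differences, with 2.14, 1.65 and 13.02 in DP and 577, 931.5 and 1432 in TR (-7.55 ± 0.74, adjusted p = 0.00590, limma). Of 12 markers of B and plasma cells, 4 passed the filter and Ighm was the one called, with sums of 107 to 160 in DP and 676, 1153 and 1833 in TR. In TR libraries 1 and 2, Ms4a1 was at 1.05 and 2.06, Cd79a at 2.10 and 0.69, and Igkc at 0 and 1.37, while Ighm was at 577 and 931.5. In TR library 3, Ms4a1, Cd79a and Igkc stood at 124, 77.5 and 36.6. Mzb1 was at 0 in all 6 libraries. Cd79b had 13.9, 24.0 and 15.8 in DP and 0, 103 and 58.4 in TR, Blnk 70.5, 48.0 and 40.9 in DP and 46.2, 59.8 and 57.5 in TR and Cd22 38.5, 27.3 and 37.2 in DP and 44.1, 50.2 and 43.6 in TR, without a call. The part of B-cell RNA in the difference of Ighm was not tested.

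Of 12 myeloid markers 5 passed the filter, with sums of 852 to 968 in DP and 789 to 1115 in TR. Itgax, which encodes CD11c and is also found on some intraepithelial T cells, was called higher in DP, with 12.8, 31.4 and 87.4 in DP and 0, 0 and 0.87 in TR (4.79 ± 0.82, adjusted p = 0.0307, limma). Csf1r, Cd14 and Fcgr3 were the 3 of the 12 at 0 in all 6 libraries. Of 10 markers of innate lymphoid cells 4 passed, with sums of 2960 to 4235 in DP and 3775 to 5331 in TR, and the called ones were Il1rl1 and Gata3. Ncr1, Kit and Il22 were at 0 in all TR libraries. Of 10 stromal markers 3 passed, with sums of 137 to 173 in DP and 158 to 173 in TR. Of these, limma, edgeR and DESeq2 called 0 and 0 passed an unadjusted p of 0.05. Col3a1 and Dcn were among the 3 of the 10 at 0 in all 6 libraries. None of the 8 erythroid and mast cell markers passed the filter. Itgax (without any DP library, or TR library 2 or 3) lost its call when 1 library was left out (adjusted p up to 0.150, limma).

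Of 6 γδ T-cell markers 3 passed the filter, and Tcrg-C4 and Tcrg-C2 were called higher in DP, with sums of 1511 to 1955 in DP and 251 to 423 in TR. Tcrg-C2 had 13.9, 33.1 and 27.9 in DP and was at 0 in TR, at least 9.57-fold higher in DP (adjusted p = 0.0128, limma). Tcrg-C1 had 9.62, 8.27 and 13.02 in DP and was at 0 in TR, below the filter. The third tested, Trdv4, had 194.5, 155.6 and 179.5 in DP and 332, 421 and 247.5 in TR and was not called. Sox13, a factor of γδ T cells, was below the filter, at 0 in all DP libraries but not in all TR libraries. Trdc, the constant region of the δ chain, had no value in the data. The constant regions of the γ locus resemble each other, so their reads can be assigned to the wrong copy, and the part of host γδ T cells in Tcrg-C4 was not tested. Tcrg-C2 (without any DP library) lost its call when 1 library was left out (adjusted p up to 0.120, limma).

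The same contrast in the lamina propria, DP minus TR in 6 other libraries on the same genes, called 605 genes higher in DP (4.41%) and 982 higher in TR (7.15%) in limma. Of the 272 genes called higher in DP in the epithelium, 139 were among those of the lamina propria, 51.1% of the epithelial list and 23.0% of the other. Of the 383 higher in TR, 272 were shared, 71.0% and 27.7%. Whether a difference was unlike between the sites was tested as an interaction over the 12 libraries, with a weight per group. Of 14963 genes, limma called 15 (0.100%), 4 with a more positive and 11 with a more negative difference in the epithelium. The count was 0 without epithelial TR library 2 or library 3, where 1202 and 1254 genes passed an unadjusted p of 0.05. It was 5 without epithelial DP library 3, 8 without lamina propria TR library 2 and 1 or 2 without any other single lamina propria library. On simulated counts this fit gave more false calls than its threshold promises.

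Icos and Cd28 differed more in the epithelium than in the lamina propria, while the interaction was not called for Ctla4 (adjusted p = 0.102, limma), Tnfrsf4 or Tnfrsf18. Icos had 268, 248 and 242 in epithelial DP and 2697.6, 2722 and 2861 in lamina propria DP. In TR it had 4363, 6454 and 5777 in the epithelium and 11661, 11754 and 8419 in the lamina propria. The difference was -4.43 in the epithelium and -1.93 in the lamina propria (interaction -2.50 ± 0.22, adjusted p = 0.00358, limma). Cd28 had 144, 238 and 169 in epithelial DP and 1626.6, 1340.4 and 1400.4 in lamina propria DP, with differences of -3.93 and -1.58 (interaction -2.35 ± 0.31, adjusted p = 0.0309, limma). For both genes TR was above DP at both sites.

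Crem, a factor of cyclic AMP responses, had 171, 174 and 249 in epithelial DP and 2595.6, 2389.5 and 3639 in lamina propria DP, with differences of -3.27 and -1.16 (interaction -2.11 ± 0.31, adjusted p = 0.0402, limma). Cd53, a tetraspanin of leukocytes, had 5308, 5513 and 4892 in DP and 21417, 24061 and 21997 in TR in the epithelium and differed less in the lamina propria, by -1.20 against -2.10 (interaction -0.90 ± 0.11, adjusted p = 0.0309, limma). Zfp36l2, an RNA-binding protein, had 652, 499 and 731 in DP and 1417, 1227 and 1106.6 in TR in the epithelium. In the lamina propria it had 3426.4, 2684 and 2963 in DP and 1394, 1548 and 1818 in TR, so that the order of the groups was the opposite (interaction -1.94 ± 0.27, adjusted p = 0.0362, limma). The epithelial call of Zfp36l2 was lost without any 1 of the 6 libraries (adjusted p up to 0.148, limma).

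The interactions in the other direction came with low values in epithelial TR. Prim2, a DNA primase subunit, had 0, 0 and 0.87 in epithelial TR and 111.4, 48.5 and 43.8 in lamina propria TR, while DP had 99.4, 80.3 and 67.0 in the epithelium (interaction 5.76 ± 0.70, adjusted p = 0.0309, limma). Lgals3, galectin 3, had 2.10, 1.37 and 0.87 in epithelial TR and 32.5, 31.1 and 20.7 in lamina propria TR (interaction 3.53 ± 0.53, adjusted p = 0.0402, limma). Zfp667, a zinc finger gene, had 0, 0 and 1.74 in epithelial TR, 32.5, 44.8 and 28.0 in lamina propria TR and 26.7, 14.1 and 38.1 in epithelial DP (interaction 5.10 ± 0.77, adjusted p = 0.0402, limma). The 3 epithelial TR libraries were low together for these genes. Each of the interaction calls of Icos, Cd28, Crem, Cd53, Zfp36l2, Prim2, Lgals3 and Zfp667 was lost with at least 1 library left out, with adjusted p up to 0.160 in limma.

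**Figure D5:**
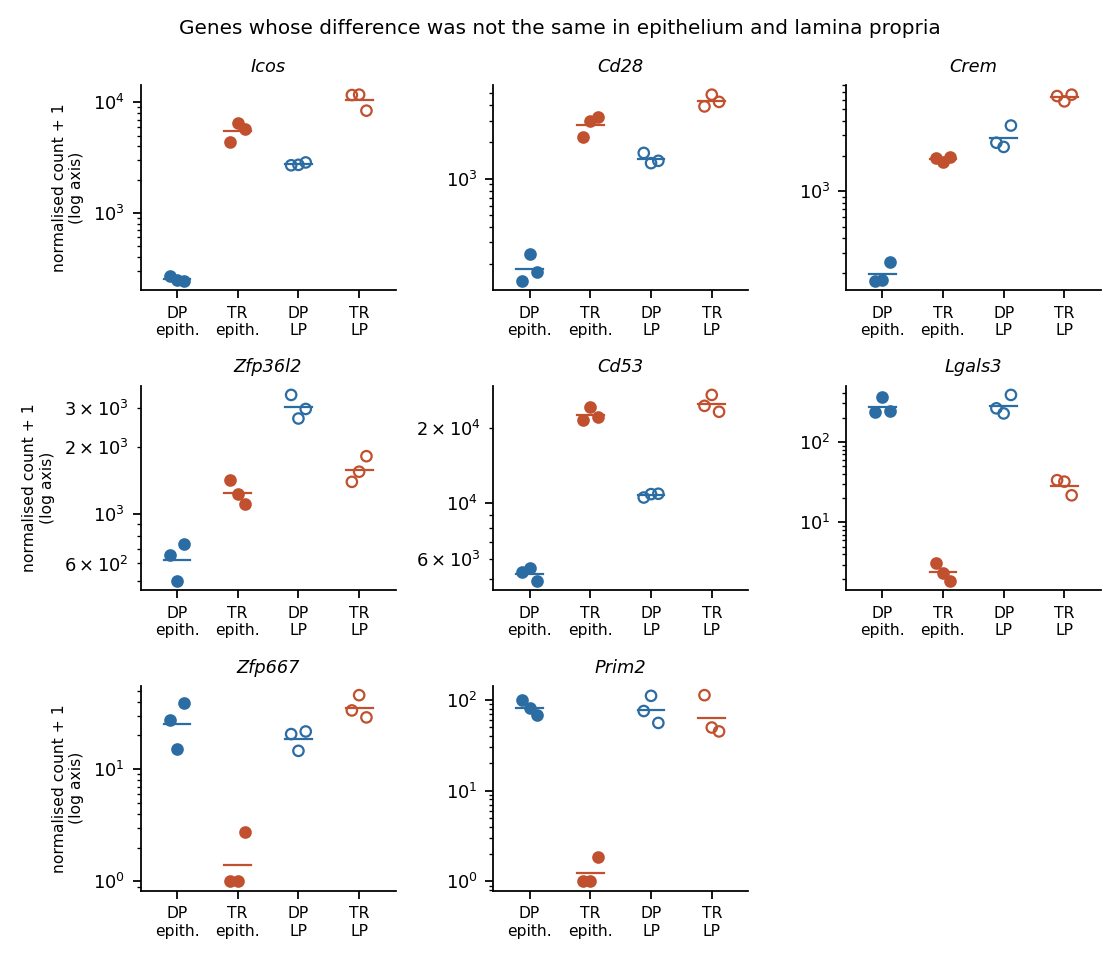
Normalised count plus 1 on log axes for the 8 genes named from the site interaction, with DP in blue and TR in red, filled for the epithelium (epith.) and open for the lamina propria (LP), 3 points per group and a line at the mean on the log scale. Icos, Cd28 and Crem show the low epithelial DP values, and Prim2, Lgals3 and Zfp667 the low epithelial TR values.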

How the data were processed

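RNA of sorted cells had been lysed in guanidine thiocyanate, captured on SPRI beads and made into Nextera XT libraries, per the labels' protocols, and reads were handled with TopHat, HTSeq and the mouse build mm10, per the submitters' processing notes. The deposited values are a normalised signal, here called normalised counts. In every library they were whole multiples of 1 step, within 0.1 step, so that they equal reads times 1 factor per library, and the reads were recovered by dividing by it. How the authors computed the factors is not given in the sources used here.

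Of 38392 genes in the table, 36639 were matched to GENCODE M21 for position, and 1125 had no symbol. The main test was limma 3.58.1 (R 4.3.3) on log2(value + 1) with trended and robust variance, over the 3 epithelial DP and 3 epithelial TR libraries, with Benjamini-Hochberg adjustment over all 13730 genes and a threshold of 0.05. The site interaction used limma with 1 weight per group on 12 libraries and genes with at least 10 in 3 or more of them. edgeR 4.0.16 and DESeq2 1.42.0 were run on the recovered reads as alternatives, and the limma fits of both comparisons were tested on simulated data. No exact permutation test of 3 against 3 libraries can go below p = 0.1.

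The members and the 26 functional and 8 marker lists were chosen with earlier results of these data known. Genes were named by rule. It took the 12 largest called differences in each direction whose higher group averaged 50 or more, with no overlap and the same call without TR library 1, leaving out predicted genes, small RNAs, pseudogenes, mitochondrial genes and variable, diversity or joining segments. It also took the called genes among the 4 smallest p of each functional list, a fixed set (Cd4, Cd8a, Cd8b1, Foxp3, Zbtb7b, Runx3, Runx1, Itgae, Gzmb and Ikzf2), up to 5 interaction calls per direction, and the 8 highest genes without a read in TR library 1. Some genes that the rule or a list takes are not reported here, and stay in the counts. Other genes were named to complete counts after their values were seen.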

Additional observations from a re-analysis of the deposited data

Results flagged for a closer look

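For the 8 genes named from the site interaction, the difference between DP and TR cells differed between the sites (adjusted p from 0.00358 to 0.0402, limma). Ifngr1 and Fos, described above with their lists, were called too, at -1.483 and -1.832 (adjusted p = 0.0404 and 0.0417, limma). The interaction on the log2 scale was -2.503 for Icos, -2.348 for Cd28, -2.105 for Crem, -1.936 for Zfp36l2 and -0.898 for Cd53. It was 5.762 for Prim2, 5.103 for Zfp667 and 3.530 for Lgals3. Each call was lost with at least 1 of the 12 libraries left out.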

How the results depend on the processing

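The count of genes called between DP and TR, 655 in limma, was 1591 in DESeq2 and 2078 when the variance was estimated over all 18 libraries. It stayed within 1.5 times under edgeR (565), a minimum of 50 (536), no filter (580), equal totals (536), quantile normalisation (684), library weights (856), a pseudocount of 0.5 (617) or 5 (712), and, both chosen after seeing the data, group weights (607) and edgeR without TR library 1 (805). Leaving out 1 library gave 164 to 860. With every library left out in turn and under the planned settings with the same filter, 121 genes were always called, 46 higher in DP and 75 higher in TR. This count did not use group weights or edgeR without TR library 1. The site interaction, 15 calls, gave 19 over all 18 libraries, 14 in edgeR and 15 without weights, and 0 to 20 with 1 library left out. With the replicate number as a block the counts were 256 and, for the interaction, 12. Same-numbered libraries deviated together with correlations of 0.0594, 0.0381 and 0.0325, under the 0.1 asked of every pair, so the numbers were not taken to pair libraries. Each library correlated best with its own number, a hint from the data, and the labels do not say whether such libraries share an animal. For the 96 named genes, 1619 of 1823 alternative values kept direction and side of the threshold, 193 lost the call, 11 gained it and 0 reversed. For the 8 interaction genes, 60 of 128 kept the call and 68 lost it.

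Only 3 libraries stand for each group, and the spread of TR, with a median SD of 0.516 on the log2 scale against 0.280 to 0.319 in the other groups, limits the calls.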
